A study of Mus musculus with 52 samples.

Results

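Non-ciliated control 2 is 1 of the 4 control clones of growing, non-ciliated cells, and its 4 libraries, of 52 in the series, were compared with the 12 libraries of the other controls, AB, 1 and 3. The members were taken from the sample titles. IMCD3 is an immortalised mouse kidney line from the inner medullary collecting duct, and the cells used here carry Cilia-APEX, a peroxidase tag in the cilium. The study's methods describe the controls as cells given the cytosine base editor and the guide plasmid without a target sequence, sorted as single cells and grown out, so that each control is 1 clone. All 4 clones are labelled as control genotype, CRISPR treated and nonciliated, in medium with 10% FBS. RNA was sequenced from 4 libraries of each clone. The study's methods speak of technical replications without naming the clones, and the labels do not spell out AB. The comparison addresses how far 1 unedited clone differs from others of the same line.

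Collecting duct cells form a polarised epithelium. E-cadherin (Cdh1) and Epcam hold neighbouring cells together, claudins and occludin seal the tight junctions, and keratins such as Krt7, Krt8, Krt18 and Krt19 build the cytoskeleton. Transcription factors of the Grhl and Ovol families and the splicing regulators Esrp1 and Esrp2 are known to keep this programme on, whereas Zeb1 and Zeb2 repress it. Collagen VI, of which Col6a2 encodes a chain, is a matrix protein that forms beaded filaments, and plexin D1 (Plxnd1) is a receptor for class 3 semaphorins.

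The total counts of the 16 control libraries ranged from 15617398 to 21085697, and between 13811 and 14562 genes were detected per library. Log2 levels of each library of control 2 correlated with those of the libraries of other clones at a median Pearson's r, across genes, of 0.931 to 0.933. The same value was 0.973 to 0.975 for the libraries of the other controls, leaving out AB replicate 1. That library stood apart from the other 3 of its clone (median r 0.973 within the clone, where all other control libraries lay between 0.997 and 0.998), so the numbers of calls, of genes outside all others and of called list members were also taken without it. The counts of each pair of libraries of a clone differed by more than sampling noise. Clones, not libraries, are the independent units. With 1 clone against 3, an exact permutation test over clones cannot go below p = 0.25. The edgeR adjusted p-values below take libraries as units, except where the libraries of each clone were summed. Without summing, the error mixes the spread between libraries of a clone with that among the 3 other clones, so these are not tests over clones. The limma values with the clone as a block allow for likeness within a clone, but control 2 is still 1 clone.

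Of 12327 genes tested with edgeR, 552 (4.48%) were called higher and 1034 (8.39%) lower in control 2, which is 12.9% together. Genes were called where the Benjamini-Hochberg adjusted p was below 0.05 and the groups differed by 1 log2 unit or more. A gene was tested where at least 4 libraries reached 0.534 CPM. Of the 552 higher genes 96 had fewer than 4 of the 12 others at that level and so passed only through control 2, and of the 1034 lower genes 467 had fewer than 4 libraries of control 2 there and passed only through the others. Such genes had to differ, and wherever they are named below as passing through 1 group their values are a description. The same test called 747 genes (6.06%) for control AB, 269 (2.18%) for control 1 and 320 (2.60%) for control 3, each against the other 3 clones. These comparisons share libraries, and the counts are set side by side without a test. The median log2 fold change of all tested genes was -0.01. Large differences lay mostly on the lower side, where 253 genes differed by 4 log2 units or more, against 40 of the higher genes. All 4 libraries of control 2 lay above all 12 others for 2023 genes (16.4%) and below them for 2006 (16.3%), which took in 509 of the 552 higher and 779 of the 1034 lower genes. Without AB replicate 1 the calls were 562 higher and 1004 lower, and 2499 genes (20.3%) lay above and 2514 (20.4%) below all others. The numbers of called genes in the 34 gene lists were then the same for 26 and differed by 1 in a direction for 8. With the clone as a random block in limma 494 higher and 533 lower genes were called. Summing the libraries of each clone ended most calls, but it leaves 1 sample of control 2, so only the other clones gave the spread.

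**Figure D1:**
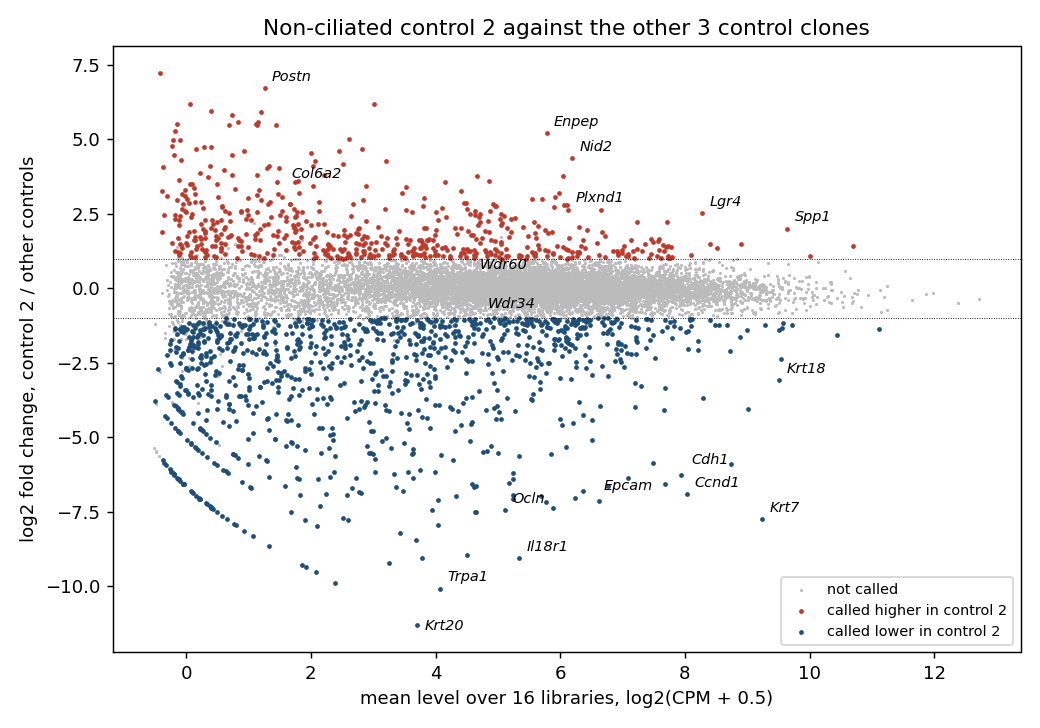
Log2 fold change of control 2 over the other 3 control clones (y axis) against the mean level over 16 libraries, as log2(CPM + 0.5) (x axis), for 12327 genes. The 552 genes called higher are red, the 1034 called lower are blue, dotted lines mark a log2 fold change of 1 in size, and the bands at the lower left are genes with few or 0 counts in control 2.

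The labelled cell type was checked first against 24 collecting duct markers. Of the 20 that passed the filter on low counts, 11 were lower and 2 higher in control 2 (over all tested genes 8.39% and 4.48%), with a median log2 fold change of -1.67 against -0.01 for all genes. The summed level of the 24 markers was 1368 to 1407 CPM (counts per library size, TMM-scaled) in control 2 and 4237 to 6988 CPM in the others. The lower ones were Epcam, Cdh1, 4 keratins, 3 claudins (Cldn3, Cldn4 and Cldn7) and the transcription factors Gata3 and Elf3. The higher ones were Pax2 and the sodium channel gene Scnn1g, and Scnn1g passed the filter only through control 2. Pax2, which acts in the ureteric bud and its collecting ducts, was higher at 274 ± 4.73 CPM (mean ± SD, n = 4 libraries) against a mean of 136 CPM, a log2 fold change of 1.0 (SE 0.14, edgeR adjusted p = 9.92e-06). Its size sits at the limit of 1, and the call was lost in 13 of 27 alternatives, among them the one without AB replicate 1. Pax8, Emx2 and Hoxb7 had log2 fold changes of 0.51 (SE 0.16), 0.76 (SE 0.07) and 0.70 (SE 0.11), under the limit of 1. Hoxd8 went the other way and was not called either, with log2 fold changes from -0.845 to -0.668 over the alternatives. The kidney cadherin Cdh16 stood at 263 ± 8.63 CPM against 224 CPM, also not called. Of the principal cell genes, Aqp2, the vasopressin-regulated water channel, had 0 counts in all 16 libraries, and Aqp3 and Avpr2 were too low to test. Gata3, which passed only through the others and whose call was lost without replicate 2 or replicate 4 of control 2, was called lower at under 1 CPM in each clone's mean, bar 1.01 CPM in control 3. In bulk RNA, fewer cells that express a gene and less RNA per cell cannot be told apart.

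Endothelial markers summed to at most 0.488 CPM in control 2, with 0 of 10 passing the filter, and Pecam1 and Cdh5 had 0 counts there. The 9 immune markers in the files summed to 48.4 to 52.9 CPM in control 2 and 22.4 to 58.2 CPM in the others. Of 3 tested 1 was called lower, Ptprc, which passed the filter only through the others. Csf1r made up most of that sum at 47.0 against 31.5 CPM, and Cd3e, Itgam, Adgre1, Lyz2 and Tyrobp had 0 counts in control 2. Fibroblast markers summed to 10.4 to 14.4 CPM in control 2 against 2.71 to 4.82 CPM, with 1 of 3 tested called higher (Postn, which passed only through control 2), and Col1a2, Col3a1 and Thy1 had 0 counts in control 2. Proximal tubule and podocyte markers summed to 296 to 319 CPM against 75.3 to 254 CPM, with Lrp2 higher and Podxl lower of 3 tested, and Slc34a1, Slc22a6 and Nphs1 had 0 counts in control 2. Over all tested genes 4.48% were called higher and 8.39% lower. The part of these markers in the results below was not tested.

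Wdr34 and Wdr60, the dynein-2 intermediate chain genes that the study edited in other clones, were not called. Wdr34 was at 25.3, 25.9, 24.8 and 22.6 CPM in the 4 libraries of control 2 and from 19.9 to 40.6 with a median of 25.4 in the 12 others. Wdr60 was at 24, 26.8, 25.4 and 24.4 CPM against a range from 18.3 to 26.1 with a median of 24.3. The groups overlapped for both genes, with log2 fold changes of -0.10 (SE 0.15, edgeR adjusted p = 0.624) and 0.12 (SE 0.10, edgeR adjusted p = 0.329).

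The genes for cell junctions and keratins were mostly lower in control 2. Of 44 listed genes 39 were tested, 32 were lower and 1 was higher (over all tested genes 8.39% and 4.48%), and the median log2 fold change was -3.39 against -0.01 over all genes. All 4 libraries of control 2 lay below all 12 others for 32 of them. The sequences around the start sites of 3 of these genes are shown because the group moved together. Each is 250 bases before to 50 after a RefSeq start on GRCm38.p6, 5′ to 3′ on the strand of the gene, and capitals mark CACCTG or its reverse complement CAGGTG, an E-box sequence that Zeb and Snai proteins are known to bind. Krt7 lies at chr15:101412153-101412452 (plus strand), Epcam at chr17:87635729-87636028 (plus strand), and the first of 2 Ocln starts at chr13:100552669-100552968 (minus strand).
Krt7: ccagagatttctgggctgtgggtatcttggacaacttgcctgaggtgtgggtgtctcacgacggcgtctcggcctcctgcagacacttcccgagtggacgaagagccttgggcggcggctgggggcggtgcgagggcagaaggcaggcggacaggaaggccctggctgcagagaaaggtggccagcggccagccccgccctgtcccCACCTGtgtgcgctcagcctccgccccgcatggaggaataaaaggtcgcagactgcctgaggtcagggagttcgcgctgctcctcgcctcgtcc
Epcam: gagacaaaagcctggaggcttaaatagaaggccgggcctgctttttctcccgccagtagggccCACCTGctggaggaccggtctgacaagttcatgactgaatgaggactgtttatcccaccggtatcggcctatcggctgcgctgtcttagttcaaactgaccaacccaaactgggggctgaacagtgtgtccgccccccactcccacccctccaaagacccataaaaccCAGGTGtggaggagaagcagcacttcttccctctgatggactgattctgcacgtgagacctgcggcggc
Ocln: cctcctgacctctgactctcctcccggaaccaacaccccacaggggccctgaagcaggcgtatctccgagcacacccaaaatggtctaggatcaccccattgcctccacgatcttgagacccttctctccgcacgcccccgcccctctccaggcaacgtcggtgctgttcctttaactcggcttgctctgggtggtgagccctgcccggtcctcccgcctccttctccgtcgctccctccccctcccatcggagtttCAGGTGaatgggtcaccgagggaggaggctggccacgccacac

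Searched on both strands, 1 such sequence was found in the window of Krt7, 2 in that of Epcam and 1 in that of Ocln. Windows were at hand for 18 of the 32 lower genes of the group, and 12 of these (66.7%) held it. Windows were at hand for 27025 genes, all outside chromosome 18, and for 9332 of the 12327 tested genes. The first windows held it for 20% of the 27025 and 17.2% of the 9332. The share was 31.5% of 711 lower genes and 17.2% of 389 higher genes. AACCNGTT, the sequence that Grhl proteins are known to bind, was in 1 of the 18 windows (5.56%) and in 2.01% of all. The 2 motifs do not overlap in letters, and they were chosen with the results known. These shares describe letters in a window and were not tested.

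Among keratins, Krt7, a type II keratin of simple ductal epithelia, was at 2.97, 3.99, 3.61 and 4.29 CPM in the 4 libraries of control 2 (chr15:101412403-101427806). The 12 others ranged from 675 to 1176 with a median of 777, and the groups lay far apart. The log2 fold change was -7.75 (SE 0.19, edgeR adjusted p = 4.67e-15). Krt8 was at 39.8, 45.9, 38.7 and 37.6 CPM against a range from 528 to 935 with a median of 627, a log2 fold change of -4.06 (SE 0.16, edgeR adjusted p = 2.13e-12). Its partner Krt18 was also lower (111 against 932 CPM, log2 fold change -3.07, SE 0.12, edgeR adjusted p = 2.39e-12). Krt19 was at 31.6 against 406 CPM (log2 fold change -3.68, SE 0.19). Krt20, a keratin of intestinal and urothelial cells, had 0 counts in all 4 libraries of control 2 and ranged from 2.16 to 26.9 with a median of 22.6 CPM in the others (chr11:99428385-99438153). It passed the filter only through the others. Taking 3 counts over the group as the floor, it was at least 423-fold lower. Among the others Krt20 also differed, with means of 23.6, 2.45 and 24.2 CPM in AB, 1 and 3.

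The adhesion genes Epcam and Cdh1 were also lower. Epcam was at 2.24, 3.44, 2.73 and 2.90 CPM in control 2 and from 171 to 465 with a median of 259 in the others (chr17:87635979-87651127), a log2 fold change of -6.58 (SE 0.36, edgeR adjusted p = 1.81e-10). Cdh1 was at 4.30, 4.34, 4.69 and 3.36 CPM against a range from 240.0 to 405 with a median of 342 (chr8:106603350-106670247), a log2 fold change of -6.27 (SE 0.22, edgeR adjusted p = 4.36e-13). Every library of control 2 was below every other library for both genes. At the tight junction, Ocln was at 0.0606, 0.299, 0.439 and 0.174 CPM, 19 counts over 4 libraries, while the others ranged from 31.2 to 57.5 with a median of 47.2 (log2 fold change -7.44, SE 0.32). Cldn4 and Cldn7, claudins of the collecting duct, were at 9.41 against 565 CPM and 5.58 against 119 CPM, with log2 fold changes of -5.91 (SE 0.34) and -4.42 (SE 0.31). Perp, a desmosomal membrane protein and p53 target, was at 0.242, 0.498, 0.439 and 0.695 CPM against a range from 46.5 to 139.7 with a median of 68.3 (log2 fold change -7.35, SE 0.49). Ocln and Perp passed only through the others, and 7 of the 32 lower genes of the group did so in all. Tjp1, which encodes the junction scaffold ZO-1, had a log2 fold change of -0.69 (SE 0.17, edgeR adjusted p = 0.00289) and was not called. The exception was Cldn2, a claudin that forms cation pores in leaky epithelia, which was higher at 37.9, 33.8, 38.0 and 38.5 CPM against a range from 1.12 to 10.9 with a median of 5.31 (log2 fold change 2.77, SE 0.43, edgeR adjusted p = 4.81e-05).

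Regulators of the programme were also lower. Esrp1, an epithelial splicing factor, was at 1.09, 0.997, 0.830 and 0.753 CPM against a range from 75 to 202 with a median of 124 (log2 fold change -7.15, SE 0.43, edgeR adjusted p = 5.35e-10). Grhl2, an activator of Cdh1 and claudin genes, was at 3.27, 4.14, 4.10 and 4.23 CPM against a range from 71.8 to 112 with a median of 74.9 (log2 fold change -4.40, SE 0.18, edgeR adjusted p = 2.90e-12). Ovol2, a repressor of Zeb1 that passed the filter only through the others, had 0 counts in control 2 and 367 in the others, at least 40.8-fold lower. Esrp2 and Ovol1 were lower too, with log2 fold changes of -2.82 (SE 0.26) and -3.08 (SE 0.30). Summing the libraries of each clone leaves 1 sample of control 2, so only the other clones gave the spread there. Over all alternatives, that one included, the log2 fold change lay from -7.837 to -7.638 for Krt7 and from -13.273 to -8.709 for Krt20. The range was -6.432 to -6.13 for Cdh1, -6.805 to -6.256 for Epcam and -7.404 to -6.791 for Esrp1. For Grhl2 it was -4.488 to -4.221, for Ovol2 -9.926 to -5.833, for Esrp2 -2.975 to -2.494 and for Ovol1 -3.261 to -2.737.

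Of the 25 mesenchymal markers 16 were tested, and 2 were higher and 0 lower, a share near the 12.9% called over all genes, and the median log2 fold change was -0.05. Zeb1 was at 76.7, 82.0, 79.9 and 84.4 CPM in control 2 and from 2.24 to 39.8 with a median of 26.0 in the others (log2 fold change 1.88, SE 0.58, edgeR adjusted p = 0.0124). Vim, the intermediate filament vimentin, was at 669, 635, 647 and 649 CPM against a range from 41.8 to 419 with a median of 248 (log2 fold change 1.48, SE 0.52, edgeR adjusted p = 0.0249). The 3 other clones were spread widely for both, and AB was lowest. Zeb1 had clone means of 2.91, 37.4 and 25.6 CPM in AB, 1 and 3, and Vim had 49.2, 402 and 249 CPM. Without control AB the log2 fold change of Vim was 0.99, under the limit of 1, and without control 3 Vim was not called either (edgeR adjusted p = 0.0715). Leaving out any 1 of the 4 libraries of control 2 also ended its call (edgeR adjusted p from 0.0508 to 0.0551), and for Zeb1 summing the libraries of each clone did (0.420). Zeb2 lay above all others at 35.1 ± 1.88 CPM but was under the limit (log2 fold change 0.93, SE 0.37). The log2 fold change of Zeb2 was 1.13 with each clone as its own group, 1.19 without control 1 and 1.15 without control 3, and it was called in these. Cdh2, the cadherin N-cadherin, was at 535 ± 14.4 CPM within the range of 256 to 981 CPM, Snai1 was not called, Snai2 was too low to test, and Twist1 had 0 counts in all 16 libraries.

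**Figure D2:**
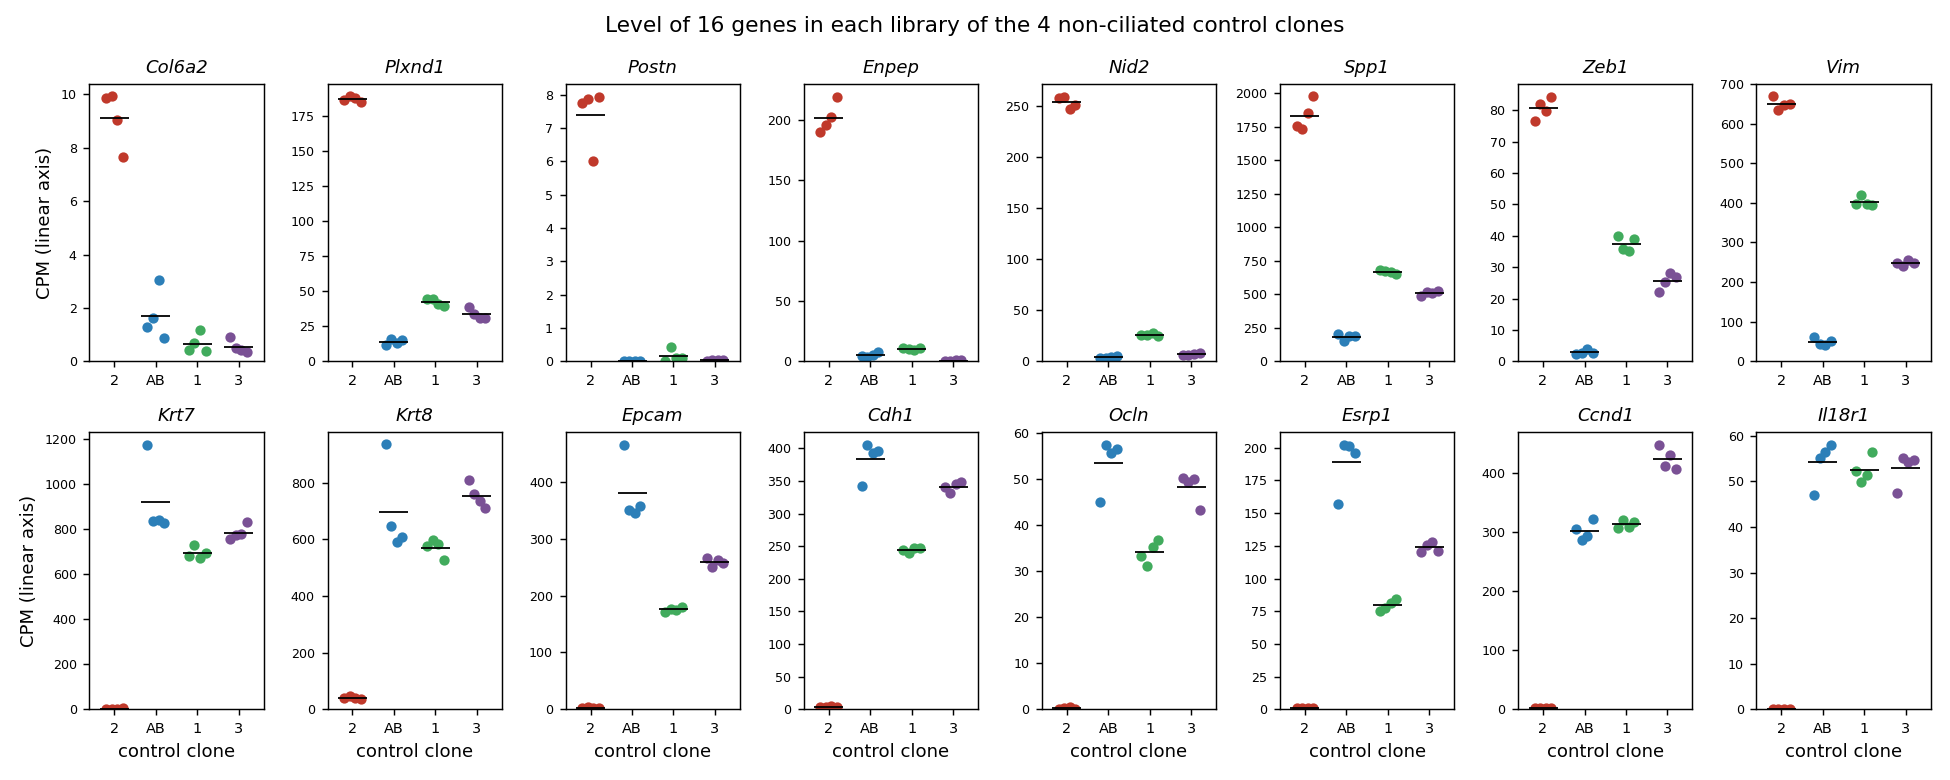
CPM (linear y axes from 0, TMM-scaled over 16 libraries) of 16 genes in each library of control clones 2, AB, 1 and 3 (x axis), with points for libraries and lines for the mean of 4. Control 2 lies above every other library for the genes of the upper row and below every other library for those of the lower row.

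Collagen genes split by chain. Of 14 tested collagen genes 7, Col6a2 among them, were higher and 3 lower (over all tested genes 4.48% and 8.39%), with a median log2 fold change of 0.95. Col6a2 (chr10:76595756-76623630) was named for being high in this clone, and its values are a description. It was at 9.87, 9.92, 9.03 and 7.64 CPM in the libraries of control 2 and from 0.337 to 3.05 with a median of 0.785 in the others (log2 fold change 3.21, SE 0.39). Col6a1, which encodes its partner chain, was at 69.8, 61.9, 65.3 and 62.8 CPM against a range from 4.38 to 16.7 with a median of 11.4 (log2 fold change 2.59, SE 0.27, edgeR adjusted p = 5.09e-07). Control AB had the highest mean of the others for both, 1.72 and 15.6 CPM. The collagen IV chains, which form the network of basement membranes, moved in opposite directions. Col4a1 and Col4a2, the chains found in most basement membranes, were at 2.75 against 0.408 CPM and 11.3 against 1.06 CPM, log2 fold changes of 2.73 (SE 0.43) and 3.42 (SE 0.62). Col4a1 passed only through control 2. Col4a5 and Col4a6 were higher, with log2 fold changes of 1.19 (SE 0.09) and 1.08 (SE 0.08). Col4a3 and Col4a4 were lower, at 3.88, 5.03, 4.15 and 3.76 CPM against a range from 55.6 to 124 with a median of 121 for Col4a3 (log2 fold change -4.51, SE 0.35, edgeR adjusted p = 1.17e-08) and 5.25 against 60.6 CPM for Col4a4 (log2 fold change -3.53, SE 0.32). Col5a1 was higher at 66.9 against 11.9 CPM (log2 fold change 2.49, SE 0.42), and Col7a1, the anchoring fibril collagen, was lower (log2 fold change -2.89, SE 0.73), a call that was lost with the clone as a block (limma adjusted p = 0.177).

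Col4a1 and Col4a2 are transcribed in opposite directions from start sites close to each other on chromosome 8, and the 2 windows are shown because they overlap in part. The capitals mark the 78 bases that both windows cover, chr8:11312777-11312854, read in opposite directions. Col4a1 lies on the minus strand at chr8:11312777-11313076 and Col4a2 on the plus strand at chr8:11312555-11312854 (RefSeq, GRCm38.p6), and neither window held CACCTG.
Col4a1: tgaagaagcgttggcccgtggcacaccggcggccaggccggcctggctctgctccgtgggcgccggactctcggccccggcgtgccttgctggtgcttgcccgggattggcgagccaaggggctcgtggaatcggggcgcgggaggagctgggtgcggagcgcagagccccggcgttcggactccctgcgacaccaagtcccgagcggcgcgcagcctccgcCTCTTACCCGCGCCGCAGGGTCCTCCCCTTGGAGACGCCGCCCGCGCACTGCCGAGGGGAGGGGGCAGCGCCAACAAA
Col4a2: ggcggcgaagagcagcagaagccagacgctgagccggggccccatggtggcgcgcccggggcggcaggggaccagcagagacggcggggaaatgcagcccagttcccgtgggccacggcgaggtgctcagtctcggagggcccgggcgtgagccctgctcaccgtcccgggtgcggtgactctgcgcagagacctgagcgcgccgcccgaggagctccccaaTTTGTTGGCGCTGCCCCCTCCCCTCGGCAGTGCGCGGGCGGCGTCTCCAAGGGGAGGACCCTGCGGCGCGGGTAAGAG

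Laminins and integrins attach epithelial cells to the basement membrane. Of 22 tested 10 were lower and 2 higher (over all tested genes 8.39% and 4.48%), with a median of -0.39. The laminin chain genes Lama3 and Lamb3 were lower, with Lama3 at 0.670 against 49.8 CPM (log2 fold change -6.20, SE 0.27) and Lamb3 at 7.21 against 102 CPM (log2 fold change -3.82, SE 0.13). Lama3 was among 4 of the 10 that passed only through the others. Itgb4 and Itga6, the subunits of the hemidesmosome integrin, were lower, with log2 fold changes of -4.26 (SE 0.22) and -1.80 (SE 0.11). Itga2, a collagen receptor subunit and another of these 4, had 3 counts in control 2 and 1302 in the others, a 145-fold lower level (exact 95% counting interval 49.4 to 703). Itga1, another collagen receptor subunit, was higher at 64.4, 62.9, 64.7 and 68.6 CPM against a range from 2.43 to 17.8 with a median of 16 (log2 fold change 2.40, SE 0.38, edgeR adjusted p = 5.09e-05).

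Among matrix glycoproteins 4 of 17 tested genes were higher and 2 lower, and 4.48% of all tested genes were called higher and 8.39% lower. Postn, periostin, was at 7.75, 7.87, 6.01 and 7.93 CPM against a range from 0 to 0.433 with a median of 0.0240 (chr3:54359267-54391041), a log2 fold change of 6.72 (SE 0.50). It passed the filter on low counts only through control 2, so it had to differ, and its values are a description. The other libraries held 14 counts of Postn in all, which limits the precision of that value. Nid2, nidogen-2, a linker of laminin and collagen IV networks, was at 258, 259, 247 and 251 CPM against a range from 3.17 to 27.8 with a median of 6.99 (log2 fold change 4.36, SE 0.48, edgeR adjusted p = 8.71e-07). Spp1, osteopontin, was at 1758, 1733, 1852 and 1979 CPM against a range from 154 to 683 with a median of 512 (log2 fold change 2.01, SE 0.33, edgeR adjusted p = 8.41e-05). Tenascin C was the other of the 4. Ctgf, a target of YAP signalling, was lower (log2 fold change -1.23, SE 0.31). Among the 2 lower genes, 1 passed only through the others. Of the proteases and inhibitors, Adamts4, which cleaves aggrecan, was higher (30.1 against 1.58 CPM, log2 fold change 4.26, SE 0.47), while Plau, the urokinase gene, was lower (15.5 against 263 CPM, log2 fold change -4.09, SE 0.16). In total 4 of 20 tested were higher and 5 lower, 2 of the lower ones having passed only through the others.

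**Figure D3:**
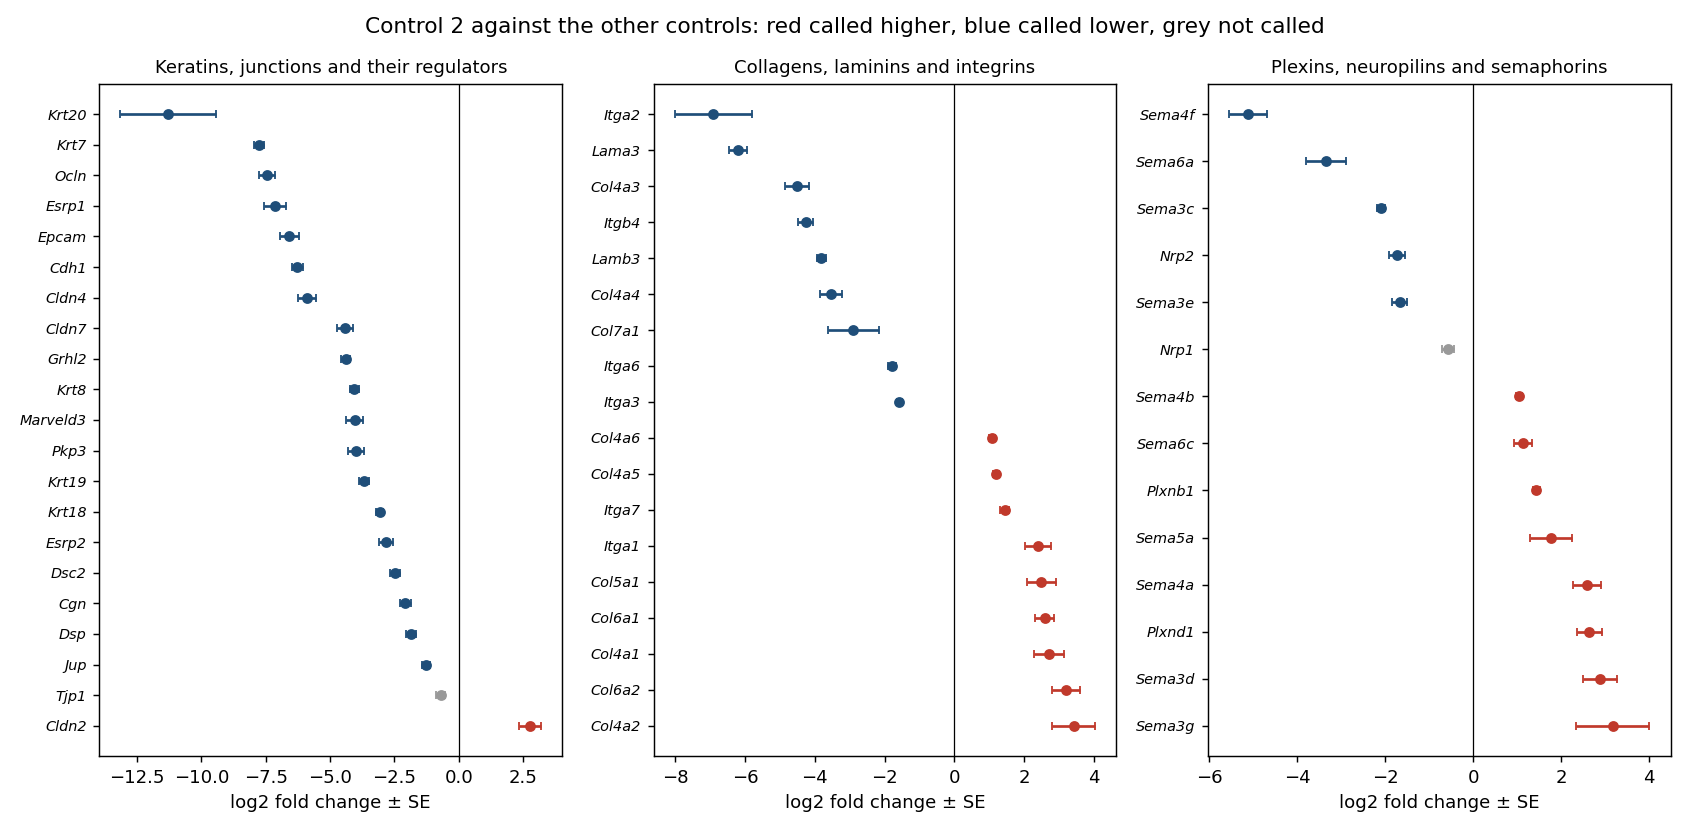
Log2 fold change of control 2 over the other controls (x axis, point ± SE from the edgeR fit) for named genes (y axis) of 3 groups, with red for called higher, blue for called lower and grey for not called. Cldn2 is the only red point among the 21 junction and keratin genes drawn, and the collagen IV chains lie on both sides of 0.

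Plexin, neuropilin and semaphorin genes carry guidance signals between cells. Of 25 tested 8, Plxnd1 among them, were higher and 5 lower (over all tested genes 4.48% and 8.39%), with a median of 0.29. Plxnd1 (chr6:115954811-115995339), like Col6a2, was named for being high in this clone, so its values are a description. It was at 186, 189, 188 and 185 CPM in control 2 and from 11.9 to 44.7 with a median of 32.5 in the others (log2 fold change 2.64, SE 0.28). The others were not alike, with means of 14 CPM in AB, 42.3 in 1 and 33.6 in 3. Plxnb1, a semaphorin 4D receptor, was also higher, at 398, 375, 373 and 377 CPM against a range from 100.1 to 164 with a median of 139.6 (log2 fold change 1.44, SE 0.09, edgeR adjusted p = 6.98e-10). Sema3e, the ligand known to bind plexin D1 without a neuropilin, was lower at 79.8, 87.5, 81.7 and 86.2 CPM against a range from 163 to 336 with a median of 270.2 (log2 fold change -1.67, SE 0.17, edgeR adjusted p = 3.27e-07). Sema3c, a ligand that acts through neuropilins, was lower too (123 against 524 CPM, log2 fold change -2.09, SE 0.09). Of the co-receptors, Nrp2 was lower (22.6 against 74.9 CPM, log2 fold change -1.73, SE 0.19), and Nrp1 was not called (178 against 263 CPM, log2 fold change -0.57, SE 0.13). Sema3g was higher from a low level (6.91 against 0.751 CPM). Sema3d passed only through control 2 (1.97 against 0.258 CPM) and Sema4f only through the others (0.308 against 11 CPM, log2 fold change -5.12, SE 0.43). Sema6a, also called lower, passed only through the others as well.

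By mean level over the 6 non-ciliated clones, the 3 genes most like Col6a2 were Smpd1, Cdk2 and Gamt (Pearson's r 0.999, 0.995 and 0.994), and those most like Plxnd1 were Il5ra, Ugt2b34 and Gba2 (r 0.999, 0.997 and 0.996). These are descriptions over 6 clones that share the high value of control 2. Smpd1, acid sphingomyelinase, and Cdk2, a cell cycle kinase, lay above all 12 others but under the limit (log2 fold changes 0.66, SE 0.07, and 0.58, SE 0.06), whereas Gamt, a creatine synthesis enzyme, and Il5ra, a cytokine receptor chain, were called higher (log2 fold changes 2.25, SE 0.22, and 3.79, SE 0.61).

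The other genes with the largest increases were low in the remaining clones. Like Postn, Pdzrn3, Corin, Zbtb8b, Ttc22, Ctxn3 and Rassf9 passed the filter on low counts only through control 2. Enpep, aminopeptidase A, was at 189.8, 196, 202 and 219 CPM against a range from 0.341 to 11.4 with a median of 4.72 (chr3:129269177-129332749), a log2 fold change of 5.22 (SE 0.54, edgeR adjusted p = 4.40e-07). Pdzrn3, a ubiquitin ligase, was at 29.1 against 0.393 CPM (log2 fold change 6.19, SE 0.36), and Corin, a serine protease, at 8.30 against 0.181 CPM (log2 fold change 5.48, SE 0.44). Zbtb8b, Ttc22, Ctxn3, Rassf9, Chst1, C1qtnf6, Spon2, Bdh2 and Masp1 completed the 15, with log2 fold changes from 4.27 (Masp1) to 5.92 (Zbtb8b). For each of the 15, control 2 had the highest mean of all non-ciliated clones, the edited clones Wdr34 and Wdr60 included. The same held for 540 of all 552 higher genes. Control 2 had the lowest mean of all non-ciliated clones for 940 of the 1034 lower genes. These genes had been called for their values in control 2, and no share over all tested genes is given. The counts are thus a description. Summing the libraries of each clone ended most calls of the 15. It leaves 1 sample of control 2, so only the other clones gave the spread. Over all alternatives, the log2 fold change lay from 4.077 to 4.566 for Masp1, a complement protease, and from 6.171 to 8.143 for Postn.

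At the lower end, Il18r1, the interleukin-18 receptor chain, was alike in the 3 other clones. It was at 0.121, 0.0498, 0.0977 and 0.116 CPM in control 2 and from 47.1 to 58.0 with a median of 54.5 in the others (chr1:40465552-40500854), with means of 54.2, 52.5 and 52.9 CPM in AB, 1 and 3 (log2 fold change -9.04, SE 0.15). It passed the filter only through the others, as did Trpa1, Tmem51, Cd34, Crmp1, Ebf1, Sgpp2, Fermt1, Prom2, Mctp2 and Padi4. Trpa1, an irritant-gated cation channel, had 1 count in control 2 against 4925, a 1642-fold lower level (exact 95% counting interval 295 to 64867). Tmem51 had 1 count against 2705 (902-fold, 162 to 35633), and Cd34, a sialomucin, 2 against 3997 (666-fold, 184 to 5504). Crmp1 and Ebf1 were uneven among the others, at 84.3 and 42.9 CPM in control 3 but 3.02 and 3.68 CPM in AB. Sgpp2, Fermt1, Prom2, Mctp2 and Padi4 completed the 15 and had log2 fold changes from -7.93 (Sgpp2) to -7.29 (Padi4), with at most 13 counts each in control 2. Fitted values of genes with so few counts depend on the prior count.

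Of 42 tested cell cycle genes 1 was higher and 3 were lower (median 0.12), against 12.9% called over all genes, and this difference in share was not tested. Cyclin D1 (Ccnd1) drives entry into the cycle with Cdk4 or Cdk6. It was at 3.03, 2.89, 3.13 and 2.49 CPM in control 2 and from 286 to 447 with a median of 319 in the others (chr7:144929931-144939831), a log2 fold change of -6.90 (SE 0.19, edgeR adjusted p = 1.85e-14). Ccnd3 was not called (67.5 against 60.0 CPM, log2 fold change 0.17, SE 0.09), and Ccnd2 had 0 counts in control 2 and 5 in the others. Cdk6 was lower (28.8 against 62.1 CPM, log2 fold change -1.11, SE 0.08). Among inhibitors, Cdkn1a (p21) was lower at 23.3, 30.1, 25.5 and 25.9 CPM against a range from 103 to 298 with a median of 123 (log2 fold change -2.64, SE 0.34, edgeR adjusted p = 5.81e-06), Cdkn2c (p18) was higher (155 against 59.8 CPM, log2 fold change 1.37, SE 0.08), and Cdkn1b (p27) lay above all others but under the limit (165 against 88.4 CPM, log2 fold change 0.90, SE 0.09). The proliferation marker Mki67 overlapped between the groups, at 489.7, 485, 495 and 552 CPM against a range from 287 to 504 with a median of 439 (log2 fold change 0.23, SE 0.11, edgeR adjusted p = 0.0892).

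Signalling genes were called in both directions, and over all tested genes 4.48% were called higher and 8.39% lower. In the Wnt and planar polarity list, 8 of 38 tested were higher and 8 lower. The ligands Wnt7a and Wnt7b, of which Wnt7b is known from collecting duct epithelium, were lower at 0.602 against 49.6 CPM (log2 fold change -6.39, SE 0.64) and 87.5 against 364 CPM (log2 fold change -2.06, SE 0.18), as was Wnt10a (log2 fold change -6.71, SE 0.78). Lgr4, a receptor for R-spondins that enhances Wnt signalling, was higher at 810.2, 812, 801 and 828 CPM against a range from 80.1 to 202 with a median of 125 (log2 fold change 2.52, SE 0.19, edgeR adjusted p = 8.67e-09). Rnf43, a ligase that removes Wnt receptors, had 0 counts in control 2 against 232, at least 25.8-fold lower. Most of those counts came from control 1 (2.77 CPM, against 0.373 in AB and 0.0754 in 3), and the call was lost with the clone as a block (limma adjusted p = 0.349). The planar polarity gene Prickle2 was at 3.16 against 0.0423 CPM (log2 fold change 5.95, SE 0.53). Of the 8 higher genes of this list 2, among them Prickle2, passed only through control 2, and of the 8 lower 5, among them Wnt7a, Wnt10a and Rnf43, only through the others. In the BMP and TGF-beta list, 9 of 34 were higher and 4 lower. Bmp7, an epithelial ligand of kidney development, was lower at 1.92 against 27.7 CPM (log2 fold change -3.84, SE 0.47, edgeR adjusted p = 3.02e-06), Bmp3 was higher at 39.5 against 4.85 CPM (log2 fold change 3.03, SE 0.44), and Id3, a BMP target, was higher at 181 against 43.7 CPM (log2 fold change 2.05, SE 0.45). Bmper, a BMP modulator, was at 1.52 against 0.0272 CPM and was 1 of 2 among the 9 that passed only through control 2, as 2 of the 4 lower ones did only through the others. Gas1, a Hedgehog co-receptor, was the only called gene of 10 tested in its list, at 195, 183, 194 and 187 CPM against a range from 0.587 to 49.0 with a median of 16.1 (log2 fold change 3.21, SE 0.73, edgeR adjusted p = 0.00158).

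Genes of dynein-2 and intraflagellar transport, the machinery that Wdr34 and Wdr60 belong to, had 0 calls among 40 tested (12.9% of all genes were called). An unadjusted p under 0.05 was found for 54.2% of all tested genes and for 16 of these 40, whose median log2 fold change was -0.04. In the list of nephronophthisis and cystic kidney genes 1 of 44 was called. It was Dcdc2a, a ciliary doublecortin, at 79.7, 78.0, 74.8 and 74.2 CPM against a range from 2.99 to 21.8 with a median of 14.5 (log2 fold change 2.59, SE 0.39, edgeR adjusted p = 3.60e-05).

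Of 25 tested tubule transcription factors 6 were higher and 5 lower, where 4.48% of all tested genes were called higher and 8.39% lower. Foxd1, a stromal progenitor factor, was at 154, 155, 152 and 139 CPM against a range from 2.97 to 44.3 with a median of 12.8 (log2 fold change 3.01, SE 0.56, edgeR adjusted p = 0.000273), and Irx3 and Irx5, factors of nephron segments, were higher, with log2 fold changes of 2.27 (SE 0.50) and 1.60 (SE 0.22). Of the 5 lower factors 3, Etv5 among them, passed only through the others. Etv4 and Etv5, which act below Ret in the ureteric bud, were lower, with log2 fold changes of -3.05 (SE 0.11) and -4.67 (SE 0.41). Of the 3 tested proximal tubule and podocyte markers 1 was higher and 1 lower, with a median of -0.45, and Slc34a1 and Slc22a6 had 0 counts in control 2. The higher one was Lrp2, the megalin receptor of proximal tubules, at 273, 269, 255 and 278 CPM against a range from 7.47 to 107 with a median of 26.5 (log2 fold change 2.63, SE 0.53, edgeR adjusted p = 0.000582). Cdh6, a cadherin of proximal tubule precursors from the cadherin list, was higher at 318 against 113 CPM (log2 fold change 1.5, SE 0.31). Scnn1g, a subunit of the epithelial sodium channel that passed the filter only through control 2, had 8 counts in the 12 others and 102 in control 2, while Scnn1a was not called.

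Genes of chromosome 1 had a lower median in control 2 than those of other chromosomes. The median log2 fold change of its 680 tested genes was -0.62 (quartiles -0.975 and -0.339), against 0.01 for the 11615 tested genes elsewhere (quartiles -0.302 and 0.306), and 606 genes (89.1%) had a negative value against 48.9% elsewhere. Of these genes 152 (22.4%) were called lower and 11 (1.62%) higher, and elsewhere 881 (7.59%) and 541 (4.66%). The 4 libraries of control 2 had chromosome 1 medians of -0.572, -0.562, -0.557 and -0.561 on the log2(CPM + 0.5) scale, taken from the mean of the 12 others, which themselves lay between -0.09 and 0.044. All 18 windows of 10 Mb with at least 10 tested genes had a negative median, from -0.85 to -0.46. Of 234 such windows on other chromosomes 127 were negative, from -0.76 up to a highest median of 0.40. The other autosomes and X had medians from -0.0890 (chromosome 5) to 0.112 (chromosome 6). The SD over the 4 libraries of control 2 was 0.00638, which is spread within 1 clone.

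Named genes on chromosome 1 include Trpa1, Il18r1, Cd34, Sgpp2, Col4a3, Col4a4, Lamb3, Nrp2, Wnt10a, Elf3 and Ptprc, and their part in that shift was not tested. Adamts4 also lies there and was higher. Only 2 of the 39 tested junction and keratin genes lie on chromosome 1, and Col6a2, Plxnd1, Krt7, Epcam, Cdh1 and Ccnd1 lie elsewhere. Other control clones had shifts of their own on other chromosomes. After subtracting each clone's median over all genes, chromosome 3 was at -0.39 in control 3 and 0.27 in AB, chromosome 6, which holds Plxnd1, at -0.41 in AB and 0.21 in control 3, chromosome 18 at -0.28 in AB, and chromosome 19 at 0.16 in control 3. All other medians of AB, 1 and 3 on the autosomes and X were smaller than 0.15 in size. In the same measure chromosome 1 was at -0.57 in control 2.

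**Figure D4:**
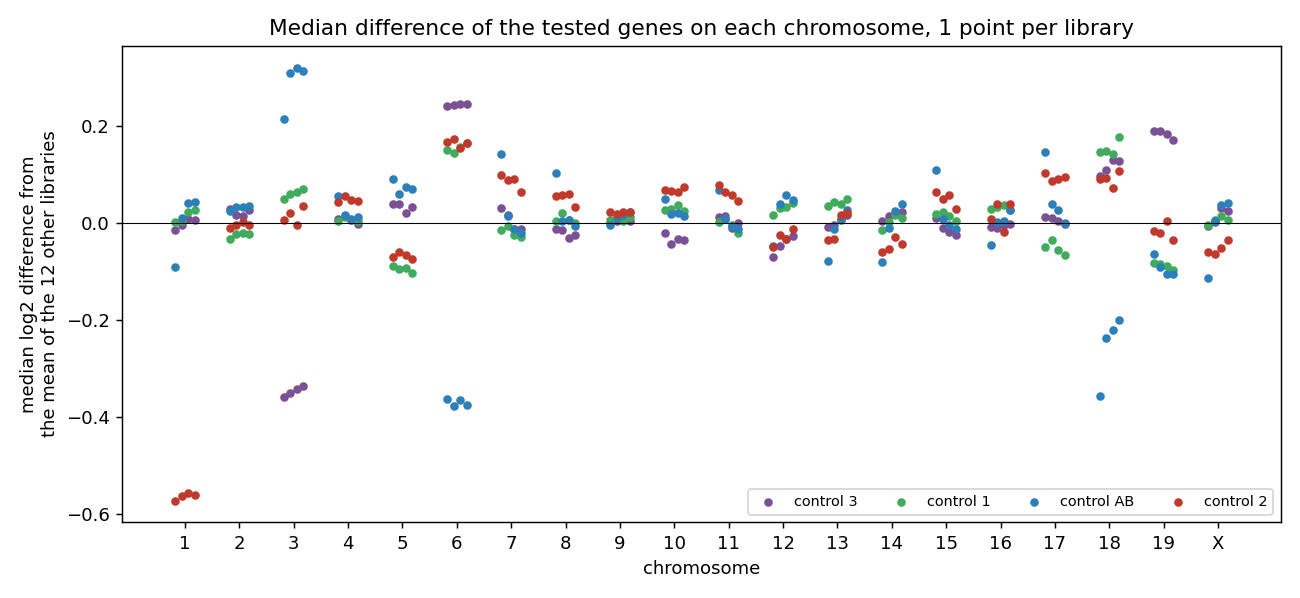
Median over the tested genes of each chromosome (x axis) of the difference in log2(CPM + 0.5) from the mean of the 12 other control libraries (y axis), with 1 point per library and colours for the 4 control clones. The points of control 2 on chromosome 1 lie from -0.572 to -0.557, and those of AB and control 3 leave 0 on chromosomes 3 and 6.

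The 52 libraries form 13 groups, each of 1 clone in 1 state and called a clone below. Across these, on a TMM scale over 52 libraries, 1 ciliated group, control G7, was also low at epithelial genes. The study's methods describe the ciliated cells as serum-starved, while the labels give 10% FBS for the ciliated libraries too. The labels tie no ciliated group to a non-ciliated one. The study's methods give 4 control and 3 mutant clones, so the same clone may be present in both states. The groups may thus not be independent, and whether G7 and control 2 are 1 clone was not tested. Krt7 was at 3.76 CPM in control 2 and 3.65 in ciliated control G7, against 62.5 to 421 in the other 6 ciliated clones. Epcam was at 2.86 CPM in control 2 and 13.5 in G7 against 287 to 837, and Cdh1 at 4.22 in control 2 and 14.4 in G7 against 301 to 649. Krt20 had a mean of 0 CPM in both G7 and control 2. On chromosome 1, G7 stood at -0.55, and the other 11 groups between -0.129 and 0.0120. Of the 1034 genes lower in control 2, G7 was the lowest of the 7 ciliated clones for 820 (79.3%), against 24.1% of all tested genes. The other 6 ciliated clones were lowest for 1.74% to 6.96% of them, against 7.67% to 19.1% of all tested genes. Of the 552 higher genes, G7 was the highest of the 7 for 276 (50%, against 22.7% of all) and ciliated Wdr34 clone 3 for 160 (29.0%, against 15.6%).

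Col6a2 was not high in G7, at 0.366 CPM, whereas ciliated Wdr34 clone 3 was at 9.89 CPM, near the 9.23 CPM of control 2. The other 5 ciliated clones were at 0.179 to 0.412 CPM, and the other 5 non-ciliated clones at 0.558 to 1.75 CPM. Plxnd1 was at 189 CPM in control 2, 165 in G7 and 124 in Wdr34 clone 3, against 36.1 to 83.4 in the remaining ciliated and 14.2 to 44.0 in the remaining non-ciliated clones. Enpep and Nid2 were higher in G7 than in control 2, at 924 and 544 CPM against 204 and 257. Ccnd1 was low in all ciliated clones, 2.18 to 85.8 CPM, and the 2.92 CPM of control 2 lay outside the other non-ciliated clones (307 to 446 CPM) but within the range of the ciliated ones.

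**Figure D5:**
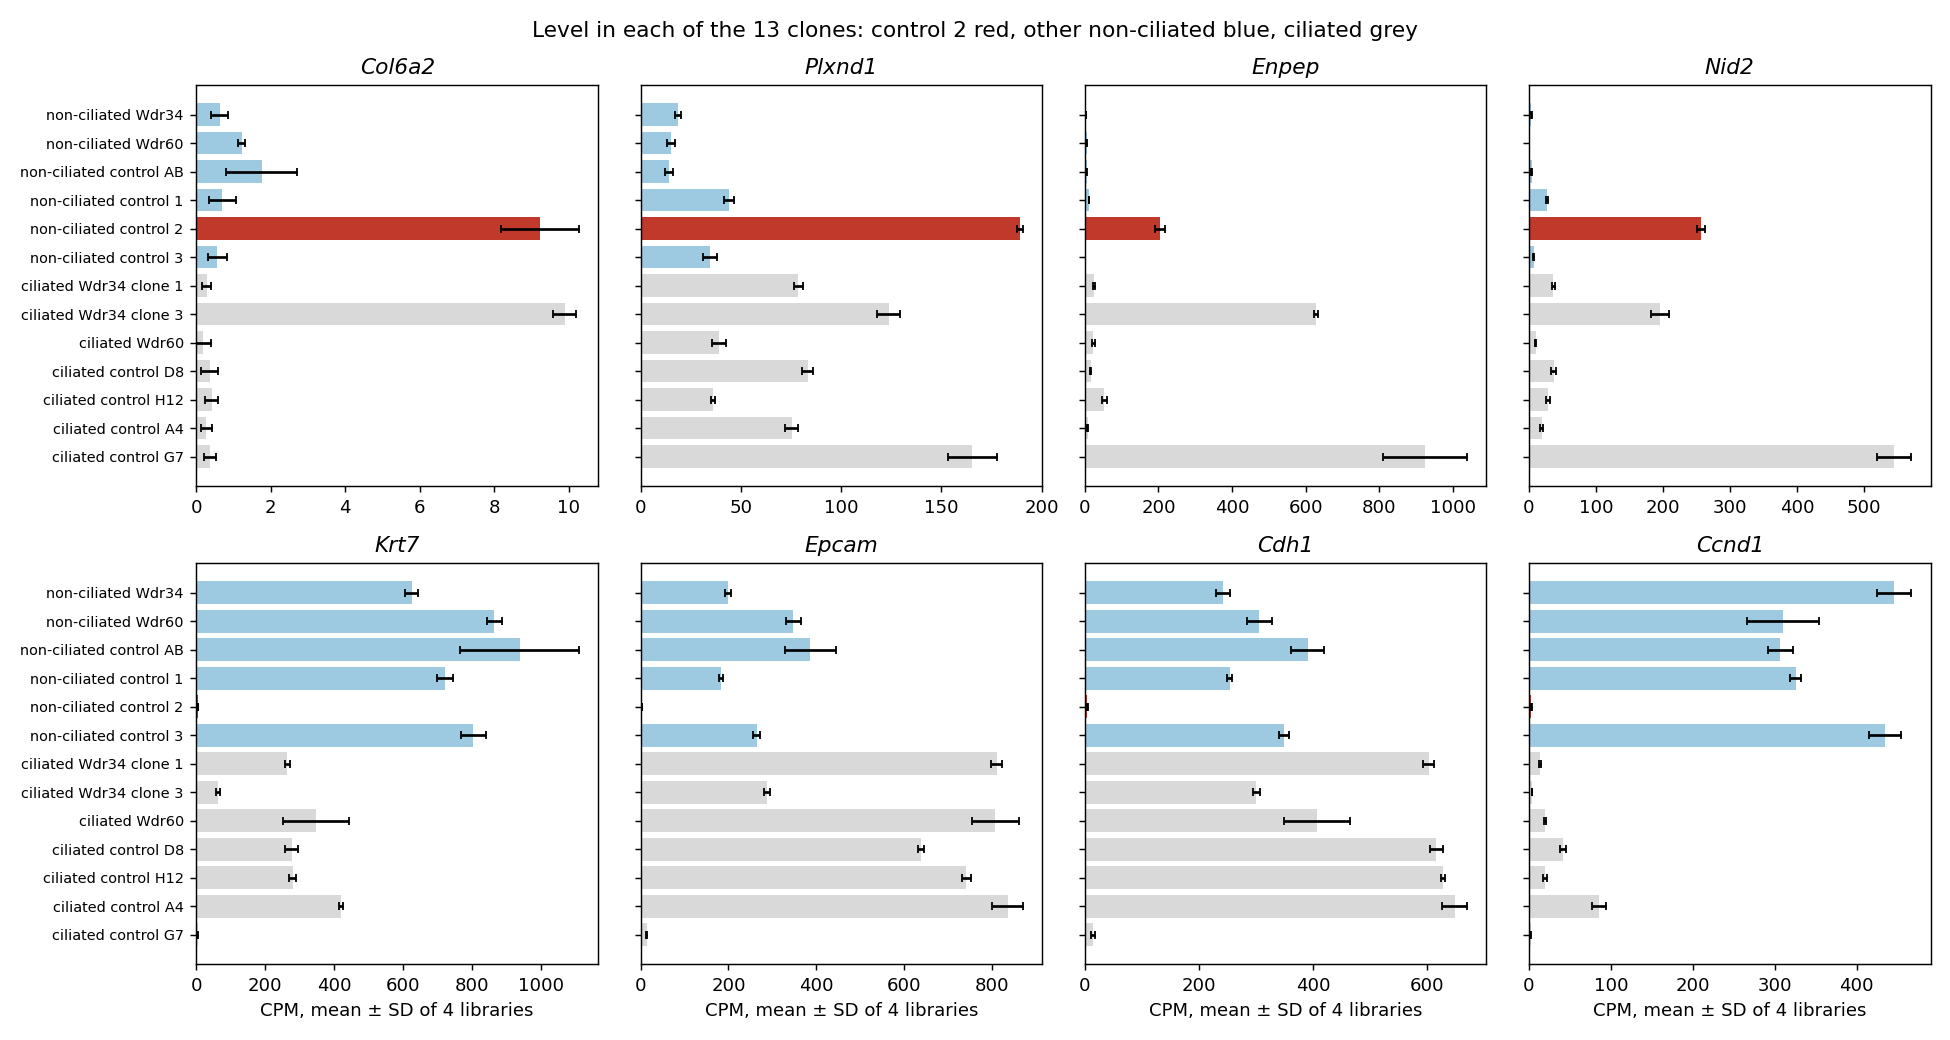
Mean CPM ± SD of 4 libraries (x axes, linear from 0) in each of the 13 groups (y axis) for 8 genes, with control 2 in red, other non-ciliated groups in blue and ciliated groups in grey. The same clone may be present in both states. Control 2 and ciliated control G7 have the lowest Krt7, Epcam and Cdh1 bars, and for Col6a2 the long bars are those of control 2 and ciliated Wdr34 clone 3.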

How the data were processed

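Total RNA of 52 libraries was sequenced in pairs and counted by the authors. The deposited values are raw read counts per gene symbol (24421 symbols), made from alignments to GRCm38/mm10 with featureCounts in R 3.4.4 per the labels and the study's methods, with DESeq2 1.18.1 also named in the submitters' processing notes. Strand and multi-mapping settings are not given in the sources used here, so overlapping genes and near-identical copies are uncertain.

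From these counts, genes were filtered with filterByExpr, scaled by TMM and tested with edgeR 4.0.16 (R 4.3.3, quasi-likelihood test, two-sided) between the 4 libraries of control 2 and the 12 of controls AB, 1 and 3, with no covariate. Calls required a Benjamini-Hochberg adjusted p below 0.05 over all genes tested and a difference of 1 log2 unit or more. CPM values use the TMM-scaled library size. Log2 levels add a pseudocount of 0.5, except in the correlations between libraries, where 1 was added. A group at 0 counts was given a floor of 3 counts over the group, and ratios from 1 to 3 counts an exact 95% interval, which covers counting error only. Total counts of the 16 libraries were 15617398 to 21085697. For 24299 symbols (99.5%) a RefSeq position on GRCm38.p6 was found, by symbol for 23203 and by synonym for 1096. Start site windows came from RefSeq on the same build.

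The members and gene lists were chosen with earlier results of these data known. Named genes were Col6a2, Plxnd1, Wdr34 and Wdr60, the 15 called genes of largest difference in each direction with all 4 libraries outside the 12 others, a mean of at least 5 CPM and a proper gene symbol, at most 4 called members of each list in full, and the 3 genes most like Col6a2 and Plxnd1. Further list members were chosen after their values were seen. Alternatives were DESeq2 1.42.0, RLE scaling, other filters and thresholds, each clone as its own group, summed libraries, limma 3.58.1 voomLmFit with the clone as a block, a replicate block, and leaving out each clone or library. Scripts were tested on simulated data. Some listed genes are not reported here.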

Additional observations from a re-analysis of the deposited data

Results flagged for a closer look

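Of 193 named genes, 17 (8.81%) had 1 library of control 2 that stood apart from the other 3, by a gap to its nearest neighbour over the range of the 4 past Dixon's 95% limit, and chance alone gives about 1 in 20. Among higher genes these were Postn at 6.01 CPM and Cldn2 at 33.8 CPM, each in the lowest library, Slc6a6 at 663 CPM, Col5a1 at 71.3 CPM and Plxnb1 at 398 CPM. Among lower genes they were Grhl2 at 3.27 CPM, Kcnk1 at 29.5 CPM, Podxl at 26.4 CPM, Marveld3 at 1.88 CPM and Itga3 at 575 CPM. Trpa1 and Tmem51 at 0.0579 CPM, Cd34 at 0.116 CPM, and Serpinb5 and Avpr2 at 0.0977 CPM had all of their 1 or 2 counts in 1 library. These 5 pass the limit by construction, so the rate of 1 in 20 bears only on the other 12. Scnn1a at 0.753 CPM and Mki67 at 552 CPM were not called.

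In groups that the comparison did not use, though some may be the same clones in the other state, some of 17 genes checked exceeded all 16 control libraries. In ciliated control G7 the means were 29.3 CPM for Postn, 36.1 CPM for Pdzrn3, 12.7 CPM for Ctxn3, 34.9 CPM for Corin, 31.7 CPM for Rassf9, 924 CPM for Enpep, 92.1 CPM for Bdh2, 544 CPM for Nid2 and 144 CPM for Masp1. In ciliated Wdr34 clone 3 they were 30.7 CPM for Ctxn3, 14.7 CPM for Corin, 628 CPM for Enpep, 57.9 CPM for Masp1 and 44.3 CPM for Adamts4. The difference between ciliated and growing cells and between these clones cannot be told apart here.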

How the results depend on the processing

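The 552 higher and 1034 lower calls became 343 and 571 when at least 10 counts were required in every library, 2768 and 3184 without a limit on the size of the difference, 16 and 100 with the libraries of each clone summed, and 494 and 533 with the clone as a block in limma. All 116 calls from summed libraries were among the main ones, and 143 of 169 called named genes lost their call there, where 1 clone stands against 3. With the clone as a block 35 lost it, among them Krt20, Itga2, Col7a1, Hoxa6, Hoxd10, Gata3, Phlda2, Ptprc, Crmp1, Ebf1, Fermt1, Prom2, Rnf43, Ifih1, Usp18, Flt4, Egfr and Notch3. Leaving out 1 library gave 531 to 564 higher and 982 to 1055 lower calls. Genes with all libraries of control 2 below the others were 3095 without control AB, against 2006, and those above 3026 against 2023. The median log2 fold change of chromosome 1 genes, -0.62, was -0.58 with DESeq2, -0.69 with any counted gene, -0.59 with 10 counts in every library, -0.60 with each clone as a group, -0.61 summed, -0.59 with the clone as a block, and -0.59, -0.61 and -0.63 without controls AB, 1 and 3, and -0.627 to -0.609 without 1 library. The log2 fold change of Wdr34 was 0.04 without control AB. No other named gene changed direction under the alternatives run. The causes were not tested. The median log2 fold change of epithelial junctions and keratins was negative under every alternative (-3.55 to -2.66), and the median log2 fold change of mesenchymal markers lay between -0.12 and 0.23.

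With the replicate number as a block there were 543 higher and 998 lower calls and the chromosome 1 median was -0.62. The numbers share no stated origin, and the correlations of same-numbered libraries were -0.217 to 0.284 over 24 pairs, of which 10 exceeded 0.1. At this depth a floor of 3 counts over control 2 equals 0.0404 CPM.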

Other observations

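Genes were also called in other lists, none of which was tested as a group, and over all tested genes 4.48% were called higher and 8.39% lower. Of 30 tested interferon response and antigen presentation genes 2 were higher and 9 lower (median -0.27). Ifih1, a sensor of viral RNA, was at 0.614 against 8.44 CPM (log2 fold change -3.78, SE 0.80), and Usp18, a brake on interferon signalling, at 0.0867 against 1.46 CPM (log2 fold change -3.89, SE 0.78). Of the 9 lower genes 6, Ifih1 and Usp18 among them, passed the filter only through the others. Both Ifih1 and Usp18 lost their call with the clone as a block. Ifit3 was higher at 353 against 120.0 CPM (log2 fold change 1.56, SE 0.40), so the list did not move in 1 direction. Of 38 tested growth factor and receptor genes 7 were higher and 14 lower, and 2 of the higher passed only through control 2 and 7 of the lower, among them Areg and Flt4, only through the others. The lower ones included the EGF family ligands Tgfa, Areg and Btc and the receptors Erbb3 and Egfr, with Tgfa at 8.81 against 46.2 CPM (log2 fold change -2.39, SE 0.19), Erbb3 at 11 against 64.5 CPM (log2 fold change -2.55, SE 0.29) and Egfr at 122 against 260.4 CPM (log2 fold change -1.10, SE 0.16). The lymphatic receptor Flt4 was lower at 0.320 against 15.6 CPM (log2 fold change -5.57, SE 1.09), while Fgfr2, the receptor for Fgf7 and Fgf10 in its epithelial form, was higher at 94.6 against 34.6 CPM (log2 fold change 1.45, SE 0.16). The calls of Egfr and Flt4 were lost with the clone as a block.

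H19, an imprinted gene on chromosome 7, was higher at 91.4, 72.1, 84.0 and 89.0 CPM against a range from 1.93 to 24.8 with a median of 11 (log2 fold change 2.84, SE 0.50). Its imprinted neighbour Igf2 passed the filter only through control 2 and is given as a description, at 3.15, 3.24, 3.81 and 3.65 CPM against a range from 0 to 0.550 with a median of 0.144. Of 16 tested imprinted genes they were the 2 called higher, and Phlda2, which passed only through the others, was the 1 called lower. Of 24 tested Hox genes Hoxa3, Hoxa6 and Hoxa7 were higher, with log2 fold changes of 1.07 (SE 0.18), 1.20 (SE 0.18) and 1.19 (SE 0.13), and Hoxd10, which passed only through the others, was lower. The call of Hoxa3 was lost without control AB, and that of Hoxd10 without replicate 2 or replicate 3 of control 2. With the clone as a block the log2 fold change of Hoxa6 was not called (limma adjusted p = 0.0508), nor was the log2 fold change of Hoxd10 (limma adjusted p = 0.620). Of 36 tested glycolysis and hypoxia genes 1 was higher and 3 were lower, a share near the 12.9% called over all genes. The hexokinase Hk2 (45.6 against 229 CPM, log2 fold change -2.33, SE 0.40), the glucose transporter Slc2a1 (99.8 against 244 CPM, log2 fold change -1.29, SE 0.17) and the lactate transporter Slc16a1 (65.1 against 145 CPM, log2 fold change -1.16, SE 0.12) were the lower ones, and Eno2 was higher but not without control AB. Of 9 tested potassium channel genes 2 were higher and 4 lower, 3 of the lower ones having passed only through the others, with Kcnk1, a leak channel, at 32.1 against 149 CPM (log2 fold change -2.21, SE 0.09). The Notch ligand Jag1 was higher at 296 against 134 CPM (log2 fold change 1.14, SE 0.43) and the receptor Notch3 lower at 1.19 against 11.6 CPM (log2 fold change -3.28, SE 0.74), 2 of 17 tested Notch genes being called in each direction. Among the called Notch genes, 1 of the higher passed only through control 2 and 1 of the lower only through the others. With the clone as a block Notch3 was not called. The log2 fold change of Jag1 was 0.69 without control AB, and its call was lost there, with the replicate block (edgeR adjusted p = 0.0665) and without any 1 library of control 2 (edgeR adjusted p from 0.0671 to 0.0780). Of 15 tested Eph and ephrin genes 2 were higher and 3 lower, led by Epha1 (1.13 against 27.2 CPM, log2 fold change -4.58, SE 0.18). Calls in the other lists were counted for p53 targets (2 higher and 3 lower of 27), Nrf2 targets (1 and 3 of 25), ER stress (1 and 0 of 31), cholesterol synthesis (0 and 1 of 35), cadherins (4 and 4 of 19), nectins (0 and 2 of 7) and collecting duct transport (3 and 1 of 20). Among the lower genes, 1 p53 target, 2 Nrf2 targets, 2 cadherins and the 2 nectins passed the filter only through the others. In collecting duct transport 2 of the 3 higher genes passed only through control 2. All genes of this paragraph belong to lists chosen with earlier results known, and 4.48% of all tested genes were called higher and 8.39% lower.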
